A study of Mus musculus with 8 samples.

Results

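The genes described here are Ablim3, Krt83, Prss12, Tff1, Foxs1, Serp2, Ms4a4c, Nmnat2, Lrrk1 and Penk, 10 of the 54446 gene entries counted in CD4+ T cells from the inflamed mouse colon. They encode no cytokines and were picked by symbol for lower counts in Rora knockout than in control colon cells. Their difference in the colon is therefore a description of the choice, and no test of it is given. The label that calls these genes lost held unevenly. Of the 10, 6 were at least 3-fold lower in the knockout mean, Ms4a4c and Nmnat2 were between 2-fold and 3-fold lower, and Lrrk1 and Penk were under 1.5-fold lower. None had a count of 0 in any colon library.

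RNA was sequenced from 8 libraries of mouse CD4+ T cells, in a series whose title concerns RORα, the nuclear receptor encoded by Rora, and the kinase complex mTORC1 in colitis driven by T cells. Control cells came from Rora_fl/fl mice and knockout cells from Cd4_cre Rora_fl/fl mice, so floxed Rora alleles were carried by both genotypes. In the knockout Cre is driven by Cd4, which acts in T cells that develop through a CD4-expressing stage. For the colon libraries, naive cells of either genotype were given to Tcrbd-/- mice, which lack T cells of their own and keep other immune cells. After 6 weeks the transferred cells were recovered from the colon as CD4+ T cells, with 2 control and 2 knockout libraries. For the culture libraries, naive cells received plate-bound antibodies to CD3 and CD28 and were cultured towards Th17 cells over 4 days. The medium held IL-6 together with TGF-β (the TGF-β mix) or IL-6 together with IL-1β plus IL-23 (the IL-23 mix). Each genotype had 1 library in each mix, without a replicate. All cells, controls included, were restimulated over 2 hours with PMA plus ionomycin just before lysis. The sources used here do not give the age or strain of the mice, or whether replicate libraries came from separate mice, so the spread behind each p-value may be technical.

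The 10 genes come from different families and are best known outside T helper cells. Ablim3 encodes an actin-binding LIM protein, and Krt83 a type II hair keratin, both parts of the cell's filament systems. Prss12 encodes neurotrypsin, a secreted serine protease that cleaves agrin. Tff1 encodes a trefoil factor secreted by gastric mucous cells, and Penk encodes proenkephalin, the precursor of enkephalin opioid peptides. Foxs1 encodes a forkhead transcription factor, and Lrrk1 a leucine-rich repeat kinase that phosphorylates the small GTPase Rab7. Serp2 encodes a small membrane protein of the endoplasmic reticulum related to SERP1, Ms4a4c a membrane-spanning 4A protein of blood cells, and Nmnat2 an enzyme that makes NAD and protects axons.

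Promoter windows were examined because the genes were chosen to move together. Windows of 250 bases before to 50 after the start site came from the RefSeq table for GRCm38.p6. They were examined for 5 of the genes (Prss12, Serp2, Ms4a4c, Nmnat2 and Lrrk1). Serp2 had a pair of start sites, which gave 6 windows in all. Ablim3, left out with its chromosome, and Krt83, Tff1, Foxs1 and Penk, which had no window there, were not examined. AGGTCA, the core hexamer that ROR proteins bind, was searched on both strands and was present in 1 of 6 windows, beside 16.3% of all 32851 windows in the table. TAGGTCA, which contains AGGTCA, was in 0 of 6 beside 2.61% of all windows, and the AP-1 motif TGANTCA in 0 of 6 beside 7.81%. The match lies in a Serp2 window, 44 bases before the start site. The 250 bases before the start are shown 5′ to 3′ on the gene's strand for that Serp2 window (chr14:76556917-76557166, minus strand), with the AGGTCA match in capitals. Windows with none of these letters are shown for Prss12 (chr3:123446663-123446912, plus strand) and for Ms4a4c (chr19:11407411-11407660, plus strand). Of the genes examined, Prss12 had the lowest knockout share, and Ms4a4c passed the culture filter.
Serp2: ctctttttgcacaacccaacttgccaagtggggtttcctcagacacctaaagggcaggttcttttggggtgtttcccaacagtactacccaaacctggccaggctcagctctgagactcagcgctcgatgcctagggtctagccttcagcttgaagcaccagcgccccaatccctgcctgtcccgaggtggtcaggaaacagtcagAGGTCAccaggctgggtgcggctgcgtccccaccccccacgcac
Prss12: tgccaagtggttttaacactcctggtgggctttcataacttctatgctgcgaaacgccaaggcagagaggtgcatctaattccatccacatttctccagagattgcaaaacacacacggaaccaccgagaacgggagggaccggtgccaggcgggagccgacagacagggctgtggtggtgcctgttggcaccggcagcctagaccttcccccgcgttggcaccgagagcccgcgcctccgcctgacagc
Ms4a4c: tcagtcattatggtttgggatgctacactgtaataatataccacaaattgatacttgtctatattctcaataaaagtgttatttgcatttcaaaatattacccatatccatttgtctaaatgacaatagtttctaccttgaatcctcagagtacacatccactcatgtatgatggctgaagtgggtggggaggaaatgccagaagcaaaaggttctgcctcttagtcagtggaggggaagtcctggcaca
These matches are letters in a window and not measured binding.

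In mm10 with GENCODE release M21, the genes lie on 10 different chromosomes and are all protein-coding. Ablim3 (ENSMUSG00000032735) spans chr18:61799392-61911824 on the minus strand with 23 exon blocks, and Krt83 (ENSMUSG00000067613) spans chr15:101485130-101491512 on the minus strand with 9. Prss12 (ENSMUSG00000027978) lies at chr3:123446913-123506597 on the plus strand with 11 exon blocks. Tff1 (ENSMUSG00000024032) lies at chr17:31161395-31165277 on the minus strand with 3. Foxs1 (ENSMUSG00000074676), at chr2:152931898-152933208 on the minus strand, is a single exon block. Serp2 (ENSMUSG00000052584) spans chr14:76532814-76556889 on the minus strand with 5, and Ms4a4c (ENSMUSG00000024675) spans chr19:11404770-11427246 on the plus strand with 8. Nmnat2 (ENSMUSG00000042751) lies at chr1:152954993-153119261 on the plus strand with 17, and Lrrk1 (ENSMUSG00000015133) at chr7:66226912-66388350 on the minus strand with 37. Penk (ENSMUSG00000045573) lies at chr4:4133531-4138819 on the minus strand with 3.

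Rora, the targeted gene, was lower in every knockout library than in its controls. Its colon counts were 3104 and 4067 in control, against 1958 and 2305 in knockout, and the log2 fold change was -0.94 ± 0.09 (SE). In culture they were 7881 in control and 3020 in knockout with the TGF-β mix, and 2307 and 906 with the IL-23 mix. The culture log2 fold change was -1.38 ± 0.07 (edgeR quasi-likelihood, Benjamini-Hochberg adjusted p = 4.04e-04, and 0.0943 with no filter on low counts). The libraries held between 13176752 and 15922696 counts.

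In colon cells, the filament genes Ablim3 and Krt83 and the protease gene Prss12 were the furthest below control. Ablim3 had 368 and 395 counts in the control replicates, against 63 and 55 in those of the knockout. In CPM, a counts-per-million scale that here uses the TMM-scaled library size, that was 29.9 and 28.2 against 4.29 and 3.55, which left 13.5% of the control mean. Both control libraries lay far above both knockout libraries, with a lowest control value 6.57 times the highest knockout value. The log2 fold change of Ablim3 was -2.89 ± 0.15 (SE), the 11th largest fall of the 13101 genes that passed the filter on low counts.

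Krt83 had 138 and 144 counts in control, against 26 and 21 in knockout, or 11.2 and 10.3 CPM against 1.77 and 1.36. The control replicates were within a ratio of 0.917 of each other, and 14.6% of the control mean was left. Prss12 had 201 and 161 counts in control, against 30 and 32 in knockout, or 16.3 and 11.5 CPM against 2.04 and 2.07. Its control libraries differed more than those of any other gene in the set, with replicate 2 at 0.704 of replicate 1, and the lowest control value was still 5.56 times the highest knockout value. The log2 fold changes were -2.78 ± 0.21 (SE) for Krt83 and -2.75 ± 0.22 for Prss12.

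The secreted trefoil factor gene Tff1, the transcription factor gene Foxs1 and the endoplasmic reticulum gene Serp2 stood at about the same distance below control, from few counts. Tff1 had 62 and 83 counts in control, against 16 and 21 in knockout, or 5.48 ± 0.629 against 1.22 ± 0.189 CPM (SD, n = 2 per group). Foxs1 had 73 and 112 counts in control, against 25 and 24 in knockout, or 6.96 ± 1.46 against 1.63 ± 0.108 CPM. Serp2 had 57 and 86 counts in control, against 23 and 15 in knockout, or 5.38 ± 1.07 against 1.27 ± 0.422 CPM. The knockout mean kept 22.3% of the control mean for Tff1, 23.4% for Foxs1 and 23.5% for Serp2. The Serp2 count of 15 was the lowest of any of the 10 genes in the colon, and its knockout libraries stood further apart (ratio 0.619) than those of the other genes. The log2 fold changes were -2.16 ± 0.26, -2.10 ± 0.24 and -2.09 ± 0.29 (SE), in the same order.

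Ms4a4c and Nmnat2 were lower by less. Ms4a4c had 77 and 123 counts in control and 41 in each knockout library, or 6.25 and 8.78 CPM against 2.79 and 2.65, which left 36.2%. Nmnat2 had 160 and 211 counts in control, against 108 and 95 in knockout, or 12.99 and 15.06 CPM against 7.35 and 6.13, which left 48.1%. The control replicates of Ms4a4c differed by a ratio of 1.40, yet the groups did not overlap for either gene. The log2 fold changes were -1.47 ± 0.22 (SE) for Ms4a4c and -1.06 ± 0.16 for Nmnat2, ranked 69 and 218 by fall.

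The description of strong falls did not hold for Lrrk1 and Penk. Lrrk1 had 72 and 97 counts in control, against 76 and 64 in knockout, or 5.85 and 6.92 CPM against 5.17 and 4.13. Its lowest control value was 1.13 times its highest knockout value, and 72.9% of the control mean was left (log2 fold change -0.46 ± 0.20, SE, rank 1742). In CPM on unscaled library totals, the groups of Lrrk1 overlapped, with 5.46 in the lower control library and 5.52 in the higher knockout library. Penk had 6251 and 7172 counts in control, against 4987 and 5728 in knockout, or 508 and 512 CPM against 340 and 370. Its control libraries were the closest of the set, at a ratio of 1.01, and 69.6% of the control mean was left (log2 fold change -0.52 ± 0.08, rank 1349). With library totals in place of TMM scaling the log2 fold changes were -0.27 for Lrrk1 and -0.33 for Penk.

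Penk was also the set's only abundant transcript. Per kilobase of merged exon length, the control mean of Penk was 312 CPM per kb in the colon. The other 9 genes lay between 0.620 for Lrrk1 and 7.79 for Tff1 on that scale, with Ablim3 at 6.40, Krt83 at 5.83, Prss12 at 5.34, Foxs1 at 5.31, Ms4a4c at 4.29, Serp2 at 3.88 and Nmnat2 at 2.43. In CPM, 5 of the 10 genes were under 10 in both control libraries.

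Both control libraries lay above both knockout libraries for 10 of 10 genes with TMM scaling and for 9 with library totals, which the choice of genes largely fixed. The same held for 34.4% of all 13101 genes tested. The median log2 fold change was -2.10 for the 10 genes, -2.13 for the 8 without Lrrk1 and Penk, and 0.01 for all genes tested. Among the genes not picked, 184 passed the edgeR quasi-likelihood test at an adjusted p of 0.05 with a fall at least as large as that of Nmnat2. Those with at least 5 CPM in both control libraries and the largest falls were Trav12-1 (-4.19 ± 0.38, SE), Cd8a (-3.19 ± 0.18), Trav13-2 (-2.89 ± 0.22), Tnfrsf25 (-2.01 ± 0.09) and Il17f (-1.98 ± 0.08). Trav12-1 and Trav13-2 are T cell receptor variable segments with close relatives, so their reads may be split among copies. Cd8a encodes a chain of the CD8 coreceptor, Tnfrsf25 a receptor that can signal cell death, and Il17f a Th17 cytokine.

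**Figure D1:**
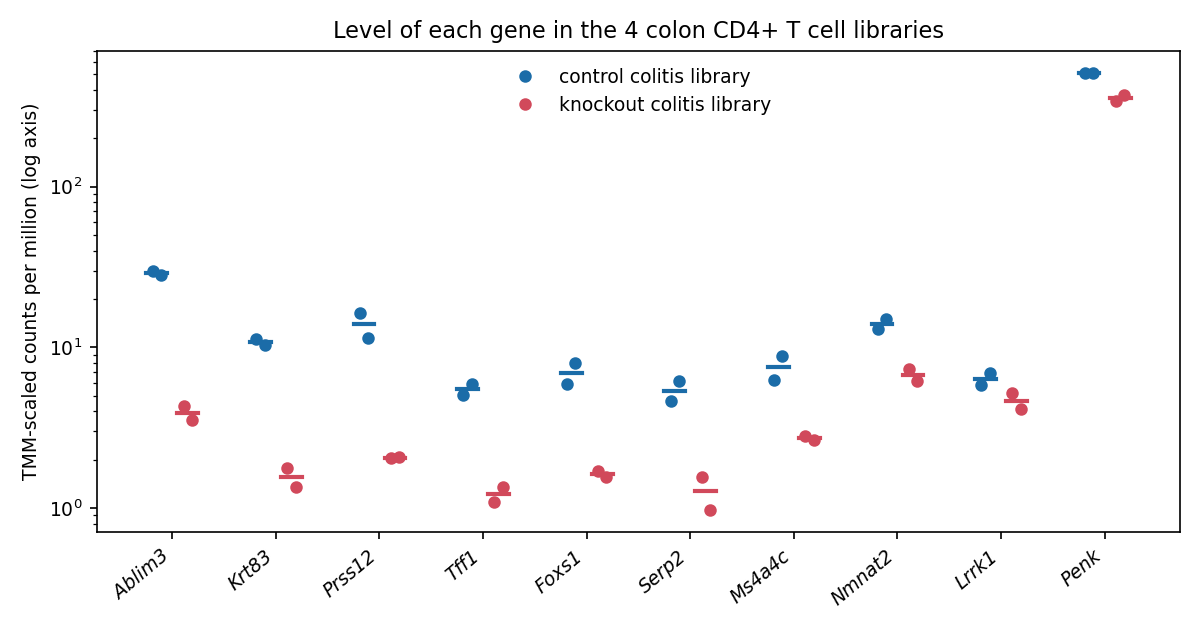
Each point is 1 colon library, with the TMM-scaled CPM on a log axis for the 10 genes in order of their fall, and each bar is the mean of 2 libraries (control blue, knockout red). Ablim3, Krt83 and Prss12 show the widest gaps, while the 4 points of Lrrk1 (4.13 to 6.92) lie close together and Penk sits near 500 in control (508 and 512).

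**Figure D2:**
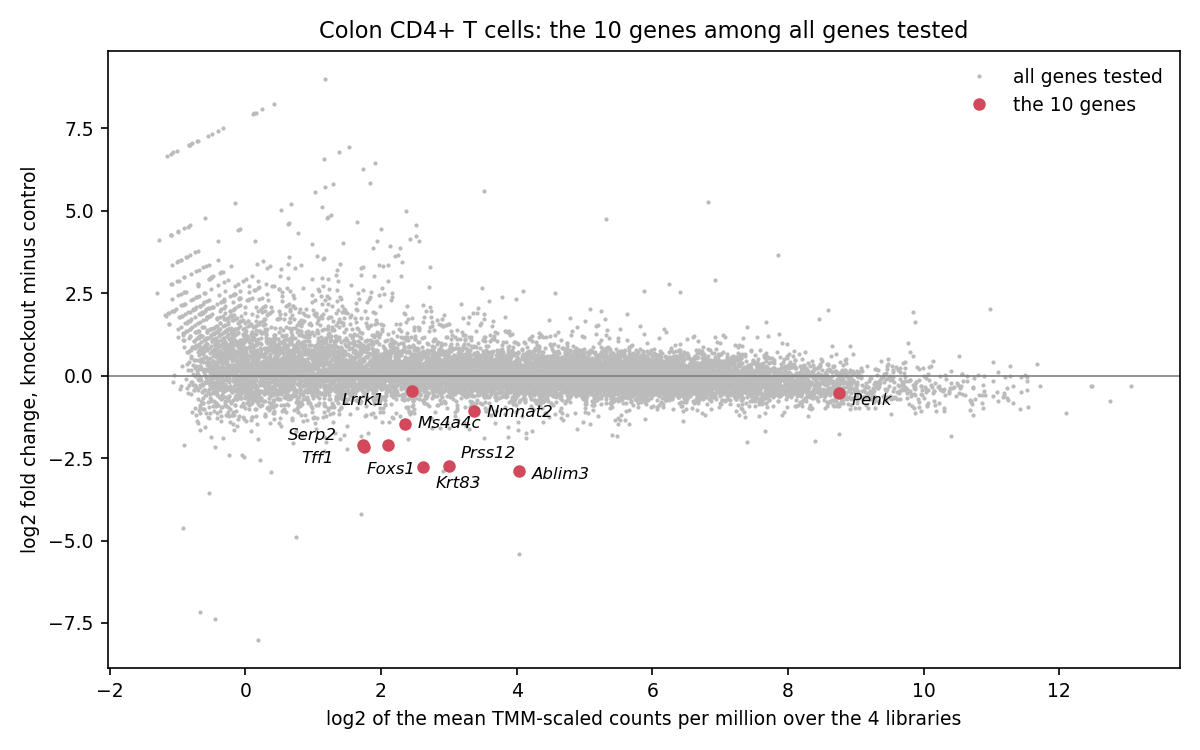
Each grey point is 1 of 13101 genes tested in the colon, with log2 mean CPM on the horizontal axis and the log2 fold change of knockout minus control on the vertical axis, and red points are the 10 genes. Of the red points 8 lie below -1, and Lrrk1 (-0.46) and Penk (-0.52) lie within the cloud.

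Reads could be shared with other genes for some of the set. Of the 50-base stretches in the transcripts of Krt83, 22.1% also occur in transcripts of other genes, 18.8% in its neighbour Krt86. Krt86 had 1 count over the 4 colon libraries and Krt81 had 0. Tff1 shared 18.1% of its stretches with Gm15318, which overlaps it by 221 bases on the other strand and had 1 count in all. Penk shared 8.60% with the opposite-strand A830012C17Rik, which had 41 and 33 control counts against 31 and 39. Prss12 shared 4.23% with the antisense gene Gm35065 (3, 3, 2 and 0 counts). Ms4a4c shared 8.19%, of which 7.73% with Ms4a4b, a relative with 2380 to 3965 counts per library. Lrrk1 (0.431%) and Nmnat2 (0.085%) shared little, and Ablim3, Foxs1 and Serp2 shared none. Strand use and the handling of reads with several matches in the authors' counting are not given in the sources used here, so the values of Krt83, Tff1, Penk, Prss12 and Ms4a4c are uncertain to that extent.

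Few of these genes were detected at a useful level in cultured Th17 cells, and none of those tested was called lower in the knockout. The filter on low counts was passed by 4 of the 10 genes in culture (Prss12, Serp2, Ms4a4c and Penk). Prss12 was the set's most abundant gene there, with 180 counts in control and 149 in knockout with the TGF-β mix, and 86 and 102 with the IL-23 mix. Its knockout to control ratio, in CPM on library totals, was 0.821 in the former mix (95% exact interval 0.657 to 1.03) and 1.18 in the latter (0.877 to 1.59). With TMM scaling these ratios were 0.820 and 1.17. Both intervals, which cover counting error only, include 1, whereas 14.8% of the control mean was left in the colon with TMM scaling. Over both mixes the log2 fold change of Prss12 was -0.07 ± 0.17 (SE, edgeR quasi-likelihood with Benjamini-Hochberg adjustment, adjusted p = 1).

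Penk, lower in knockout colon cells, was higher in knockout cultured cells from few counts. It had 6 counts in control and 21 in knockout with the TGF-β mix, a ratio of 3.47 (1.36 to 10.5). With the IL-23 mix it had 19 and 57, a ratio of 2.98 (1.75 to 5.31). The knockout library was the higher one in both mixes and both counting intervals lie above 1. The log2 fold change was 1.63 ± 0.32 (SE), with an unadjusted p of 9.22e-04 and an adjusted p of 0.60 in edgeR's quasi-likelihood test, so it did not pass the correction over 13983 genes. With other settings the adjusted p was between 0.273 (edgeR with library totals) and 1 (DESeq2).

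Ms4a4c had 6 counts in control and 16 in knockout with the TGF-β mix, a ratio of 2.65 (0.983 to 8.26), and 24 and 35 with the IL-23 mix, a ratio of 1.45 (0.839 to 2.55). Serp2 had 11 and 19 counts in the former mix, a ratio of 1.71 (0.775 to 3.99), and 5 and 7 in the latter, a ratio of 1.39 (0.380 to 5.56). All these intervals include 1. The log2 fold changes over both mixes were 0.78 ± 0.36 (SE) for Ms4a4c and 0.67 ± 0.43 for Serp2, each with an adjusted p of 1 in edgeR's quasi-likelihood test.

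The remaining 6 genes stayed under the filter in culture and were not tested. Lrrk1 had 2 counts in control and 8 in knockout with the TGF-β mix, and 8 and 19 with the IL-23 mix, where the ratio was 2.36 (0.987 to 6.24). Nmnat2 had 8 and 14 in the former mix, a ratio of 1.74 (0.680 to 4.78), and 2 and 5 in the latter, a ratio of 2.49 (0.407 to 26.1). Krt83 had 9 and 11 in the former, a ratio of 1.21 (0.457 to 3.31), and 2 and 0 in the latter. Tff1 had 1 and 0 in the former and 14 and 6 in the latter, a ratio of 0.426 (0.134 to 1.18). Ablim3 had 1 count in each control library and 0 in each knockout library, and Foxs1 had 1 count over the 4 libraries. A difference between genotypes in Ablim3 or Foxs1 was not detectable in culture at this depth.

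Across culture, 0 of the 4 tested genes passed an adjusted p of 0.05 for genotype (edgeR quasi-likelihood), 1 had an unadjusted p under 0.05, and DESeq2 also called 0, with 1 at an unadjusted p under 0.05. Of all 13983 genes 0.0286% passed, that is 4, and 500 had an unadjusted p under 0.05. The knockout library was the higher one in both mixes for 5 of the 10 genes (Serp2, Ms4a4c, Nmnat2, Lrrk1 and Penk). Of these, Nmnat2 and Lrrk1 did not pass the filter. Among the 4 tested genes it held for Serp2, Ms4a4c and Penk, beside 23.3% of all 13983 genes tested. The difference between the colon and the culture response was not tested.

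**Figure D3:**
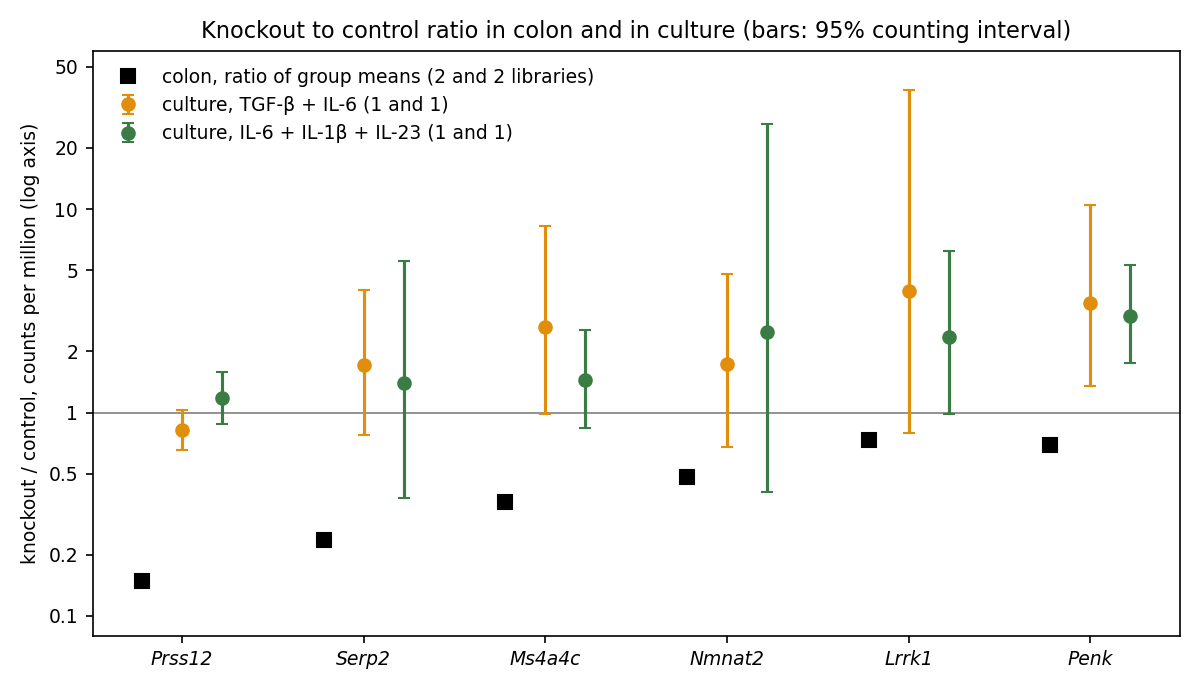
The knockout to control ratio is plotted on a log axis for the 6 genes with counts in all culture libraries, in the colon (black squares, ratio of the means of 2 libraries) and in each culture mix (orange and green, 1 library against 1, with 95% counting intervals). Colon ratios use TMM-scaled CPM, and culture ratios use CPM on library totals. All colon ratios lie below 1, while both culture ratios of Penk (3.47 and 2.98) lie above 1 with their intervals, and those of Prss12 (0.821 and 1.18) lie on either side of it.

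The cytokine mix moved the 4 tested genes in different directions in edgeR. With the IL-23 mix, Penk was higher than with the TGF-β mix (log2 fold change 1.55 ± 0.32, SE, adjusted p = 0.00249), and so was Ms4a4c (1.49 ± 0.37, adjusted p = 0.00641). Prss12 (-0.75 ± 0.18, adjusted p = 0.0050) and Serp2 (-1.24 ± 0.44, adjusted p = 0.0337) were lower. All 4 passed in edgeR's quasi-likelihood test, beside 35.8% of all genes higher and 34.0% lower, so this share is not particular to the set. DESeq2 called none of the 4, with adjusted p from 0.0675 for Prss12 to 0.438 for Serp2.

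Nearly all of the set was higher in colon cells than in cultured cells of the control genotype. The genes were picked for a fall from the colon control, which favours genes with counts there. The share of all genes higher in the colon is not given, so this cannot be called particular to the set. These levels come from separately counted tables with different annotations and from cells of different origin, and are descriptions in CPM on each library's total. Penk was at 477 in the colon control mean and at 0.380 and 1.25 in the TGF-β and IL-23 mixes. Ablim3 was at 27.2 in the colon and had 1 count per culture, a ratio of 428 (95% counting interval 76.6 to 16940) and 413.5 (74.0 to 16350). Foxs1, at 6.51 in the colon, had no count in either control culture. The lower bounds of the 95% counting intervals of its ratio were 27.9 with the TGF-β mix and 26.9 with the IL-23 mix. For Nmnat2 the ratio was 26.0 (13.1 to 60.7) with the TGF-β mix and 100.5 (27.6 to 833) with the IL-23 mix. For Lrrk1 it was 47.4 (12.9 to 395) and 11.5 (5.68 to 27.0), in the same order. Prss12 alone was at a like level, with 13.01 in the colon and 11.4 in the TGF-β mix, a ratio of 1.13 (0.941 to 1.36), and 5.64 in the other mix, a ratio of 2.28 (1.80 to 2.92).

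Over the 8 libraries, the profile of each gene was compared with the mean standardised log2 CPM of the 10. Each gene is itself part of that mean. Pearson's r with that mean was between 0.904 and 0.989 for 9 genes and 0.245 for Prss12. Among the 15836 genes that passed the filter in the joined table, Sidt2, Asna1, Dpf2, Cd8a and Tbc1d1 were nearest to it, with r from 0.995 to 0.997. The 8 points share their origin in colon or culture, and r describes them only. Sidt2 had 11145 and 12052 counts in control, against 7913 and 7622 in knockout colon libraries, and 5489 to 5681 in culture. Sidt2 encodes a lysosomal membrane protein, and its colon log2 fold change was -0.78 ± 0.08 (SE). The 10 genes were picked for falls in this contrast, so a fall in genes of like profile follows from the choice. No test of it is given. Cd8a had 248 and 245 counts in control, against 30 and 32 in knockout colon libraries, and 0 in every culture.

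Relatives and pathway partners of the genes were counted in the colon from lists that leave the 10 genes out. Over all 13101 genes tested, 19.9% were called lower and 19.6% higher in knockout cells (edgeR quasi-likelihood, adjusted p under 0.05). Scaling by library totals moved the median of all genes by 0.193 on the log2 scale.

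The tested relatives Ablim1, Serp1, Ms4a4a, Ms4a4b, Nmnat1 and Nmnat3 had log2 fold changes from -0.48 (Serp1) to 0.98 (Ms4a4a). Of 16 tested actin-binding LIM proteins and partners of Ablim3, 5 fell, 4 rose and 7 did not pass, with a median of -0.10. With library totals 2 were called lower and 4 higher, with a median of 0.09. Ablim1, with 190.5 and 181.2 CPM in control, was at -0.03 ± 0.08 (SE, adjusted p = 0.782). Actg1, a cytoplasmic actin gene (-0.64), and Srf, a regulator of actin genes (-0.48), fell, and Lmo7 (2.32) rose. Of 16 listed genes of the hair keratins and their cluster, 2 were tested, and Krt8, a keratin of simple epithelia, rose by 4.10 ± 0.25 on the log2 scale while Krt18 (0.26, adjusted p = 0.189) did not pass. Within the protease list of Prss12, 4 of 11 tested genes rose, 1 fell and 6 did not pass (median 0.14), and with library totals 7 were called higher and 1 lower. Furin, a proprotein convertase, fell by 1.13, and Plaur (1.31), for the urokinase receptor of the plasminogen system, rose. Agrn, the agrin gene, was at 0.14 ± 0.15 and did not pass.

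Of 16 tested forkhead genes, 4 rose, 2 fell and 10 did not pass (median 0.08), while with library totals 8 were called higher and 0 lower (median 0.27). The genes with the smallest p were Foxp1 (0.66), Foxn3 (0.52) and Foxn2 (0.53), all higher in knockout under both scalings. For the translocon of the endoplasmic reticulum, 3 of 16 rose, 7 fell and 6 did not pass, with a median of -0.16 that was 0.03 with library totals. Serp1, the relative of Serp2, had 381 and 434 CPM in control and 282 and 302 in knockout and fell by 0.48 ± 0.09 (SE) on the log2 scale (edgeR adjusted p = 0.00123). Ssr2 (-0.72), Ssr4 (-0.62) and Sec61a1 (-0.53), also translocon genes, fell. In the Ms4a family, 3 of 10 rose, 2 fell and 5 did not pass (median 0.58), and with library totals 5 were called higher and 2 lower. The 2 that fell were Tmem176a (-1.26 ± 0.08) and Tmem176b (-1.18 ± 0.08), related membrane proteins also known from Th17 cells. Ms4a4b was at 0.15 ± 0.11 (adjusted p = 0.285) and Ms4a4a at 0.98 ± 0.56 (adjusted p = 0.186).

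Among 17 tested genes of NAD synthesis and use, 3 rose, 2 fell and 12 did not pass (median 0.02), and with library totals 6 were called higher and 1 lower (median 0.21). The sister enzymes of Nmnat2, Nmnat1 (0.08 ± 0.22, SE) and Nmnat3 (-0.23 ± 0.30), did not pass. Nmrk1, which makes NMN from nicotinamide riboside, fell by 0.71, and Nampt (0.51), which makes NMN from nicotinamide, and Mycbp2 (0.79), for a ubiquitin ligase known to act on NMNAT2, rose. Of 12 tested LRRK and Rab genes, 4 fell, 1 rose and 7 did not pass, with a median of -0.03 that was 0.17 with library totals. Lrrk2 was at -0.70 ± 0.23 (edgeR adjusted p = 0.0313), a call that ended with library totals (0.102) and in DESeq2 (0.151). Rab7 was at -0.11 and did not pass. Rilpl2 (-0.37) and Rab8a (-0.36), a Rab effector gene and a Rab gene, fell, and Ppm1h (0.36), for a Rab phosphatase, rose. The call of Ppm1h (adjusted p = 0.0142) ended in DESeq2 (0.104) and without knockout replicate 1 (0.113). With library totals, 0 of these 12 genes were called lower and 3 higher.

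Of 14 listed opioid genes other than Penk, 4 were tested. The prohormone convertase gene Pcsk1 fell by 0.95 ± 0.16 (SE) on the log2 scale, from 14.4 and 11.9 CPM to 6.94 and 6.59, and Cpe (1.13 ± 0.18), for the carboxypeptidase that trims peptide hormones, and Ctsl (1.24 ± 0.11), for a lysosomal protease, rose (edgeR adjusted p of 7.73e-04, 5.72e-04 and 1.31e-05). Pcsk2, Pdyn and the receptor genes Oprd1 and Oprk1 had 0 counts in all 4 colon libraries, and Oprm1 and Oprl1 had at most 2. Of 3 tested trefoil and mucin genes, Muc13 (2.93 ± 0.32) and Muc3 (2.35 ± 0.47) rose. Muc1 fell by 0.68 ± 0.21 (adjusted p = 0.0215), a call that ended with library totals (0.078) and in DESeq2 (0.215). Tff2 had 0 counts and Tff3 had 1 count over the 4 libraries. Th17 genes, which the study is about, moved as follows: of 21 tested, 14 fell, 2 rose and the others did not pass (median -0.61, and -0.42 with library totals).

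In culture, none of the tested genes in these lists was called for genotype by edgeR other than Il17a in the Th17 list (log2 fold change -0.90, adjusted p = 0.00481).

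Most tested genes near the 10 were not called lower. Within 100 kb lie 85 other annotated genes, of which 27 were tested in the colon. By edgeR's quasi-likelihood test 4 of these fell, 6 rose and 17 did not pass, with a median of 0.10, beside the 19.9% and 19.6% of all genes. The largest fall was in Tsc22d1, a transcriptional regulator gene, 25.0 kb from Serp2, with 146 and 160 counts in control, against 77 and 85 in knockout (-1.11 ± 0.16, SE, adjusted p = 2.65e-04). Chsy1, a chondroitin synthase gene 53.1 kb from Lrrk1, was at -0.37 ± 0.09 (adjusted p = 0.00611, and 0.121 with library totals). The other 2 that fell, named after their values were seen, were the laminin gene Lamc1, 99.7 kb from Nmnat2 (-0.97 ± 0.08, adjusted p = 7.23e-06), and the vesicle coat gene Sec24d, 81.3 kb from Prss12 (-0.73 ± 0.09, adjusted p = 8.15e-05).

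Several other genes lying close by did not pass the test. Snhg8, 0.955 kb from Prss12, was at -0.21 ± 0.18 (SE), and Tmprss3 and Abcg1 near Tff1 were at 0.36 and 0.05. Tpx2 and Pdrg1 near Foxs1 (0.26 and -0.11) and Afap1l1 near Ablim3 (-0.86 ± 0.35, edgeR adjusted p = 0.071) did not pass either. Krt83 had no tested gene within 100 kb, since the keratin genes around it had at most 7 counts in a library.

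**Figure D4:**
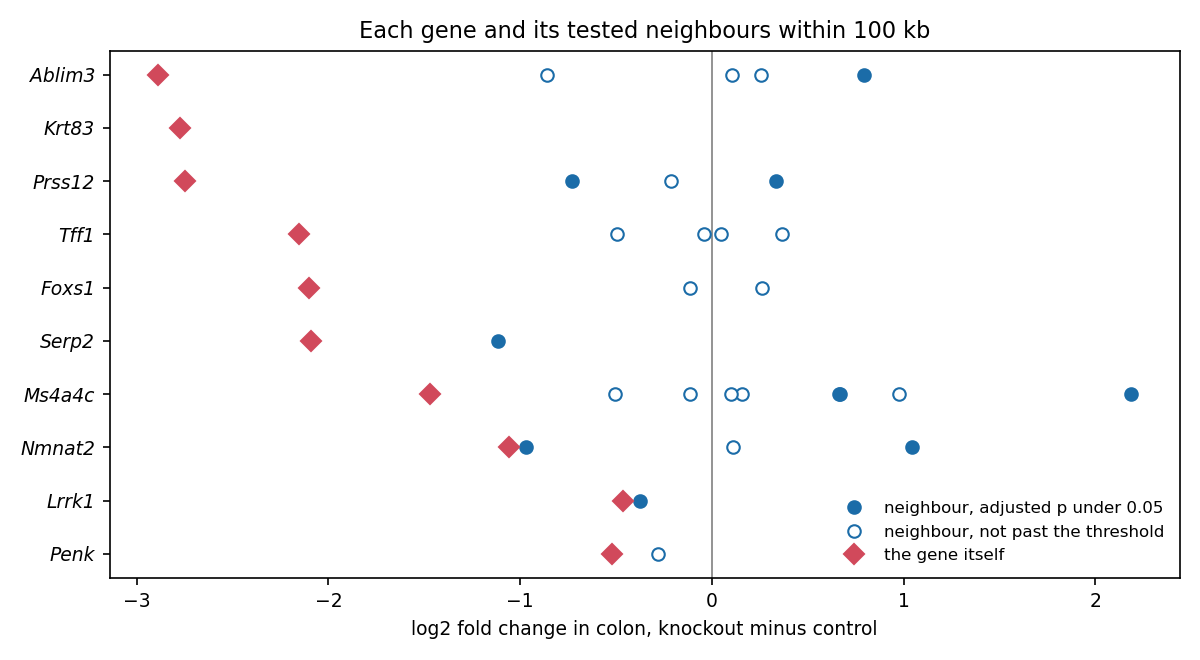
Each line shows the colon log2 fold change, knockout minus control, of 1 of the 10 genes (red diamond) and of the tested genes within 100 kb of it (circles, filled where the adjusted p was under 0.05). All 27 circles lie right of the diamond on their line, and Tsc22d1 (-1.11) beside Serp2 and Lamc1 (-0.97) beside Nmnat2 are the furthest left.

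The makeup of the colon libraries also differed between the genotypes. Per the labels these are CD4+ T cells, and all 16 conventional T cell markers passed the filter. The summed CPM of these 16 conventional T cell markers was 14820 and 14270 in control and 11560 and 11340 in knockout, and 12 of them fell, 1 rose and 3 did not pass (median -0.32). With library totals 6 were called lower and 1 higher (median -0.13). Epithelial markers summed to 53.1 and 49.9 in control and 137.1 and 136.8 in knockout (9 of 10 tested rose), and fibroblast markers to 56.7 and 45.5 against 175.9 and 159.5 (11 of 11 rose). B cell and plasma cell markers summed to 596.5 and 584.2 against 2090 and 2272 (6 of 7 rose). In such bulk libraries, fewer cells of a type and less RNA per cell cannot be told apart, and the part of these shifts in the falls of the 10 genes was not tested.

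The cell types in which some of the genes are best known were checked by their own markers. For Tff1, goblet and gastric mucous markers summed to 0.325 and 0.214 CPM in control and 1.57 and 1.61 in knockout, and 9 of the 11, among them Tff2 and Tff3, had 0 counts in both control libraries. Tff1 itself was at 5.03 and 5.92 CPM in control. For Krt83, the hair and skin markers Krt31, Krt33a, Krt34, Krtap3-3 and Dsg3 had 0 counts in all colon libraries, and the list summed to 2.44 and 2.00 CPM in control and 2.72 and 2.33 in knockout. For Foxs1, known from pericytes, markers of pericytes and smooth muscle summed to 13.97 and 13.63 CPM in control and 14.78 and 14.01 in knockout, and 0 of 6 passed the threshold.

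Nmnat2 and Penk are known from neurons, and here the sum of the neuronal markers was lower in knockout while single markers moved both ways. Neuronal and neuroendocrine markers summed to 75.6 and 68.5 CPM in control and 33.1 and 27.3 in knockout. Most of that sum was Ret, a receptor kinase gene, at 69.3 and 62.7 CPM in control and 28.3 and 23.8 in knockout (-1.34 ± 0.11, SE, edgeR adjusted p = 6.72e-06). Stmn2 fell as well (-1.62 ± 0.33, adjusted p = 0.00243), Elavl3 rose (1.53, adjusted p = 0.0436, and 0.333 in DESeq2) and 2 of the 5 tested did not pass. The neuronal genes Elavl4, Snap25, Syt1 and Vip had 0 counts in all 4 libraries. CD8 markers summed to 125 and 119.9 CPM in control and 58.7 and 62.9 in knockout (3 of 4 fell), with Cd8b1 at -0.35 and not past the threshold. Their part in the values of the 10 genes was not tested.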

How the data were processed

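Read counts per gene were deposited by the authors for 8 libraries as whole numbers with no normalization, per the file headers. The submitters' processing notes name mm10 and the tools featureCounts, Bowtie2, Trim Galore, DESeq2 and edgeR, while strand and annotation are not given in the sources used here. Of 54446 entries in the colon tables, 54409 occur in GENCODE M21, and 53657 symbols were joined with the culture tables (55341 entries). Library totals ran from 13176752 to 15922696 counts. Replicates were checked to be distinct (chi-square per gene 7.57 in control and 5.51 in knockout).

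Tests used edgeR 4.0.16 in R 4.3.3 (filterByExpr, TMM, quasi-likelihood F-tests, Benjamini-Hochberg over all genes, threshold 0.05). The colon was fitted alone (2 residual degrees of freedom). Culture was fitted with terms for mix and genotype (1 residual degree of freedom), which takes the mixes as repeats. Ratios within a mix compare 1 library with 1, use library totals and carry exact conditional binomial intervals of 95%. Shared stretches are 50 bases long. Scripts were tested on simulated data. Library totals, DESeq2 1.42.0, no filter, a replicate block, a prior count of 2 and leaving out libraries were tried.

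The 10 genes and the gene lists were chosen with earlier results of these data known. The text names these genes, Rora, up to 3 genes per list with the smallest p and all relatives, the nearest tested gene on each side within 100 kb, the 5 genes nearest in profile and the 5 largest other falls of at least 5 CPM in both controls. No set test was run. Agrn, Rab7, single cell type markers and genes at or near 0 counts were named outside this rule, and some genes that it covers are not reported here.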

Additional observations from a re-analysis of the deposited data

Results flagged for a closer look

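Serp2, Ms4a4c, Nmnat2, Lrrk1 and Penk were lower in both knockout colon libraries than in both controls and higher in the knockout library of both culture mixes. The smaller of the 2 culture ratios of knockout to control was 1.39 for Serp2, 1.45 for Ms4a4c, 1.74 for Nmnat2, 2.36 for Lrrk1 and 2.98 for Penk. Among these smaller ratios, only that of Penk had a 95% counting interval above 1 (1.75 to 5.31). The choice of genes largely fixed the colon part, which held for 34.4% of all 13101 genes tested there. The culture part held for 23.3% of all 13983 genes tested there, and Nmnat2 and Lrrk1 did not pass the culture filter. The difference between colon and culture was not tested, and with library totals the colon groups of Lrrk1 overlapped.

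Krt83 and Prss12 moved in opposite directions in the 2 culture mixes. The knockout to control ratio with TGF-β and IL-6 was 1.21 for Krt83, from 11 and 9 counts, and 0.821 for Prss12. In the other mix, with IL-23, Krt83 had 0 counts in knockout and 2 in control, and the ratio of Prss12 was 1.18. All 4 counting intervals include 1, and the difference between the mixes was not tested.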

How the results depend on the processing

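The median colon log2 fold change of the 10 genes was -2.10. It was -1.90 with library totals, -1.999 with a prior count of 2, and from -2.28 to -1.88 when each library was left out in turn. It was -2.12 with DESeq2, -2.12 with no filter on low counts and -2.13 for the 8 genes without Lrrk1 and Penk, a set chosen after seeing the data. The sign of each of the 10 genes in the colon held under all these settings, which the choice of genes largely fixed.

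The number of colon genes called was 5173, of which 49.6% were higher in knockout. DESeq2 called 3448 (41.3% higher), library totals gave 5546 (77.2% higher), no filter gave 5569, and leaving out a library gave 4198 to 5133. In culture, 0 of the 4 genes tested by edgeR were called for genotype, with TMM scaling or with library totals. With DESeq2 or with no filter, 0 of the 10 genes were called. The culture log2 fold change of Prss12 (-0.07) was 0.24 in the mix of IL-6, IL-1β and IL-23 alone, and the cause was not tested. The 4 genes called for cytokine mix became 0 with DESeq2, and the call of Serp2 ended with no filter (adjusted p = 0.0733), where Tff1, from 1 and 0 counts against 14 and 6, was called (log2 fold change 4.05, adjusted p = 0.0246), which left 4 called.

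The labels do not say what the replicate numbers share. Same-numbered colon libraries deviated together weakly (correlation 0.154 over 13101 genes), and 2 pairs cannot show whether the numbers mark a batch. With a replicate block, the median of the 10 genes was -2.09 and 6230 colon genes were called. In culture the fit already compares genotypes within each mix, and with 1 library per group there was no replicate number to add as a block.

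Low counts limit what can be said of Ablim3, Krt83, Tff1, Foxs1, Nmnat2 and Lrrk1 in culture, where they stayed under the filter. With 2 colon libraries per group, the spread rests on few values. A lone library left after leaving one out is assumed to vary like the other group.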
